A study of Homo sapiens with 6 samples.

Results

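The matrix metalloproteinases (MMPs), the ADAM and ADAMTS proteases, the ADAMTS-like proteins and their inhibitors, the TIMPs, were followed by RNA-seq after knockdown of the long non-coding RNA MIR100HG. Genes were chosen by name alone: every row of the count table whose identifier carries an MMP, ADAM, ADAMTS, ADAMTSL or TIMP symbol with its number, which gave 71 of 27745 genes. All samples were of MDA-MB-231, a human cell line from triple-negative breast cancer, that had been infected with lentivirus made from the pLKO.1 hairpin vector. The virus carried sh-TRC (the control hairpin), sh-MIR100HG-1 or sh-MIR100HG-2, with 2 replicates in each of the 3 groups and 6 samples in all. Every group, the control included, had therefore been infected with a hairpin lentivirus, and a single cell line was measured. The labels and methods do not state whether the replicates came from separate infections, so p-values measure only the spread between these samples.

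MMPs are zinc-dependent enzymes that cut collagens, proteoglycans and other proteins around the cell, and most are made as inactive precursors that other proteases, furin among them, must clip. ADAMs are mostly anchored in the plasma membrane and release the outer parts of receptors, growth factors and adhesion molecules, while ADAMTSs are secreted and act on proteoglycans, procollagens and von Willebrand factor. TIMPs bind the active site of MMPs and, to differing degrees, of ADAMs and ADAMTSs, and ADAMTS-like proteins share the ancillary domains of ADAMTSs without the catalytic domain. In invasive breast cancer cells the membrane-anchored collagenase MMP14 is known for local breakdown of collagen at the cell surface.

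MIR100HG is the host transcript of miR-100, let-7a-2 and miR-125b-1, so the small RNAs that could bear on these genes are shown with the hairpins' own antisense strands, each with bases 2 to 8 (the seed) in capitals. The microRNA sequences are those of RefSeq, and the hairpin strands come from the study's list of oligonucleotides.
miR-100-5p: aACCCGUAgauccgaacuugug
let-7a-5p: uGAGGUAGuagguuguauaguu
miR-125b-5p: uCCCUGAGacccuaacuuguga
guide of sh-MIR100HG-1: aTTTAAGTacaaacagaggaa
guide of sh-MIR100HG-2: tTTATTCTgtaggtcactctc
The 2 hairpin guides have different seeds. The small RNAs themselves were not measured in these libraries. By qPCR, the study found the hosted microRNAs unchanged in MDA-MB-231 cells when MIR100HG was overexpressed. Their levels after knockdown are not given there.

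Total counts per sample ranged from 43804736 to 64588388, and 3 counts corresponded to 0.0452 to 0.0708 CPM (the counts of a gene relative to all counts of its library, scaled by edgeR's TMM factors). MIR100HG was at 41.9 and 58.5 CPM in the sh-TRC samples, 15.2 and 13.2 with sh-MIR100HG-1, and 16.6 and 10.4 with sh-MIR100HG-2. Both hairpins thus gave values below both controls, although the edgeR adjusted p was 0.381. The 5 genes listed as typical of mesenchymal triple-negative cells, VIM, CD44, EGFR, CAV1 and AXL, were all present, with summed levels of 4392 to 5101 CPM in the controls and 4747 to 5490 CPM in the knockdown samples. PGR, the progesterone receptor, had 0 counts in 5 of 6 samples, and ERBB2 made up most of the luminal list, whose sum was 114 to 145 CPM in the controls and 98.5 to 131 CPM in the knockdown samples. Control replicate 2 and sh-MIR100HG-1 replicate 1 stood apart together in some, but not all, marker genes of the luminal list and of other cell types. In these 2 samples ESR1 was at 2.38 and 2.79 CPM against 0.120 to 0.590 CPM in the other 4, PDGFRA at 2.41 and 3.27 against 0 to 0.223, and TEK at 5.47 and 5.06 against 0.335 to 0.661. Genes of the same lists that did not stand apart there included LUM, at 0.544 and 1.39 CPM against 0.838 to 2.93. COL1A2 was at 2.99 and 2.68 CPM against 1.32 to 7.60, and CDH5 at 0.102 and 0.120 against 0 to 0.160. The fibroblast list summed to 17.5 to 25.2 CPM in the controls and 13.6 to 24.7 CPM with knockdown, the leukocyte list to 5.18 to 11.7 and 2.34 to 9.13 CPM, and the endothelial list to 0.447 to 5.57 and 0.661 to 5.18 CPM.

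Of the 71 genes, 48 had at least 5 counts in at least 4 samples and were tested. They were all 4 TIMPs, all 5 ADAMTS-like genes, 14 of 23 MMPs, 14 of 19 ADAMTSs and 11 of 20 ADAMs. Of the 23 genes removed, 6 had 0 counts in every sample (ADAM2, ADAM7, ADAMTS5, ADAMTS18, MMP26 and MMP27) and 19 had no sample with 10 counts or more. The gelatinase MMP2 was among those removed, with 2 to 10 counts per sample.

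Levels per exon length (TPM, computed from the counts and the deposited exon lengths) differed widely within the families. Mean TPM over the 6 samples was at least 100 for 7 genes, between 10 and 100 for 9, between 1 and 10 for 20 and under 1 for 12. TIMP1 led with a mean of 1483 TPM and ranked 57 among all genes in the table. MMP14 followed at 883 TPM (rank 113), TIMP3 at 716 TPM (rank 154) and TIMP2 at 321 TPM (rank 487). The ADAMs with the highest levels were ADAM9 at 176 TPM, ADAM8 at 172, ADAM15 at 123, ADAM19 at 89.9, ADAM10 at 55.7 and ADAM17 at 38.1. The most abundant ADAMTSs were ADAMTS15 at 66.9 TPM and ADAMTS12 at 25.9 TPM. MMP14 alone made up 93.9% to 96.3% of the summed TPM of all MMPs in each sample. The next MMP was the secreted enzyme MMP19 at 11.9 TPM.

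**Figure D1:**
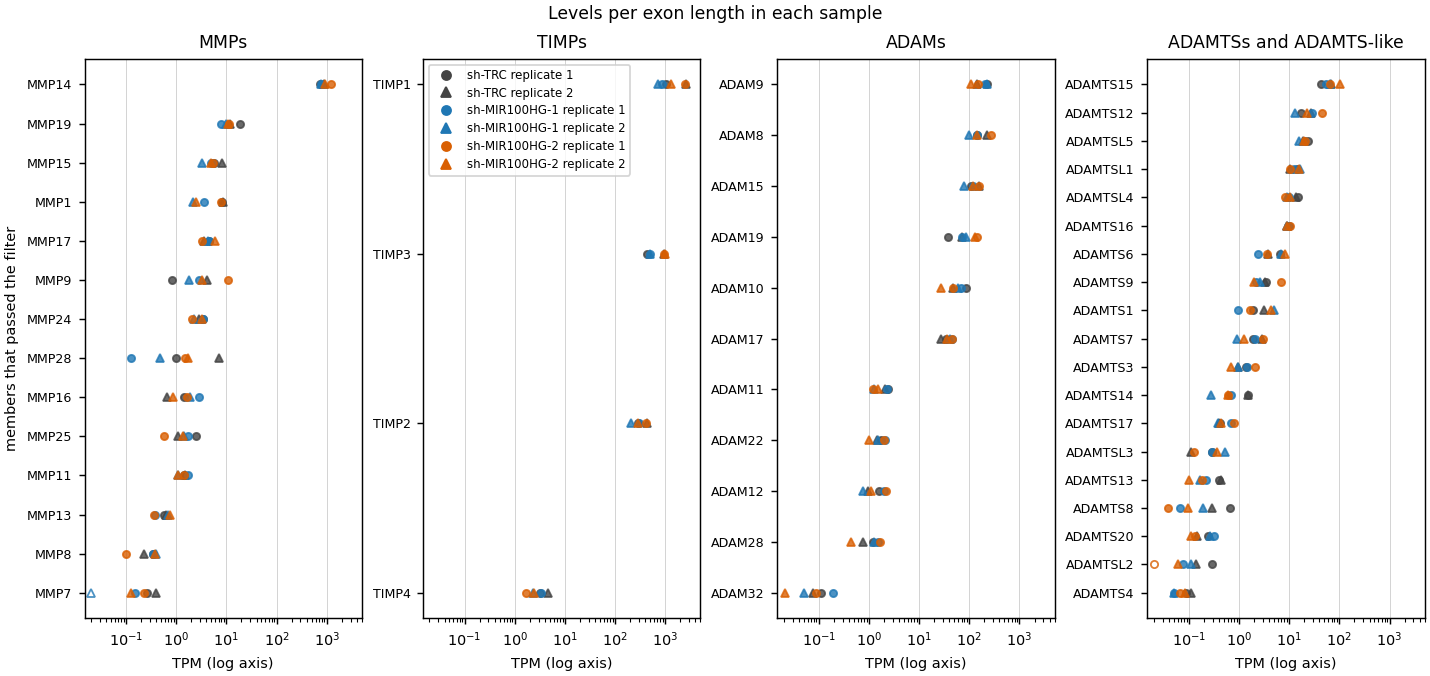
Level per exon length in TPM (log axis) of the 48 genes that passed the filter, in 4 panels by family and ordered by mean, with 1 point per sample, colour for group and shape for replicate number; open points lie below 0.02 TPM and are drawn there. MMP14 and 3 of the 4 TIMPs sit far above the rest of their panels in all 6 samples.

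No gene of these families passed the adjusted test after knockdown, nor did any of the 15372 genes tested. With both shRNAs set against sh-TRC in edgeR's quasi-likelihood test, 0 of 48 members were called at an adjusted p of 0.05 or below (0% of all genes), and the smallest adjusted p was 0.524. Counts were also 0 (0% of all genes) with sh-MIR100HG-1 alone (smallest adjusted p 0.714), with the other hairpin alone (0.455) and between the shRNAs (0.509). Of all genes, 1180 were at an unadjusted p under 0.05 with both shRNAs. Other tools called single members: with both shRNAs, edgeR's likelihood ratio test and DESeq2 called 0 members, with sh-MIR100HG-2 each called 1 (ADAM19), and with sh-MIR100HG-1 DESeq2 called 1 (MMP28). Over all genes, the likelihood ratio test called 121 and DESeq2 167 with sh-MIR100HG-2, and DESeq2 called 66 with sh-MIR100HG-1. Because no member was called in the quasi-likelihood test, the values that follow describe levels and their spread and make no claim of a change. The common biological coefficient of variation was 27.8%.

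At an unadjusted p under 0.05 with both shRNAs, 7 of 48 members (14.6%) were lower, against 4.44% of all genes, and 2 (4.17%) were higher, against 3.23%. The lower genes were MMP1, MMP28, ADAMTS8, ADAMTS13, ADAMTS14, ADAMTSL2 and ADAMTSL4, and the higher ones ADAM17 and ADAM19. The median log2 fold change was -0.09 over the members (21 above 0 and 27 below) and -0.04 over all genes. Of the lower genes, 6 had a mean under 200 counts per sample, a range in which lower values were commoner in general: 7.4% of the 4381 genes below that mean were lower at an unadjusted p under 0.05 and 0.639% were higher. Of the 23 members below that mean, 6 (26.1%) were lower and 0 higher. Among the 25 members with a mean of at least 200 counts, 1 was lower and 2 were higher, where all genes gave 3.27% and 4.27%. The division at 200 counts was chosen after the values were seen.

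With sh-MIR100HG-1 alone, 5 members were lower (3.77% of all genes) and 2 higher (3.1%). With sh-MIR100HG-2 alone, 5 were lower (5.15% of all genes) and 1 was higher (3.71%). Both comparisons use the same 2 controls. Between the shRNAs, 4 members were higher with sh-MIR100HG-2 (3.34% of all genes) and 2 lower (6.12%). The 4 were TIMP1, TIMP3, MMP28 and ADAM19, and the 2 were ADAM9 and ADAM10. All 4 knockdown samples lay below both controls for 8 members (9.08% of all genes), namely MMP1, MMP7, MMP19, ADAMTS8, ADAMTS13, ADAMTS14, ADAMTSL2 and ADAMTSL4. They lay above both controls for 1 member, ADAM17 (8.4% of all genes).

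TIMP1, which inhibits most secreted MMPs and also ADAM10, was at 390.2 and 1037 CPM in the sh-TRC samples, 333 and 309 with sh-MIR100HG-1, and 951 and 566 with sh-MIR100HG-2. Control replicate 2 and sh-MIR100HG-2 replicate 1 were high, both sh-MIR100HG-1 samples were lowest, and the controls differed from each other 2.66-fold. The log2 fold change of CPM was -1.15 ± 0.43 (SE) with sh-MIR100HG-1, and with the other hairpin it was 0.09 ± 0.43. The difference between the shRNAs was 1.24 ± 0.43 (unadjusted p = 0.0203, edgeR adjusted p = 0.509). In these bulk samples a smaller share of TIMP1-rich cells and less TIMP1 RNA per cell cannot be told apart.

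TIMP3, which stays bound to the matrix and is known to inhibit ADAM17 and ADAMTS enzymes besides MMPs, showed a similar split of the controls. Its CPM values were 486 and 1147 in sh-TRC, 589 and 635 with sh-MIR100HG-1, and 1109.8 and 1248 with sh-MIR100HG-2. Control replicate 2 lay with the sh-MIR100HG-2 samples and control replicate 1 below all others. Between the shRNAs the log2 difference was 0.95 ± 0.36 (unadjusted p = 0.0283, edgeR adjusted p = 0.509). With both shRNAs against control it was 0.06 ± 0.31.

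TIMP2, the inhibitor that also bridges MMP14 and the precursor of MMP2, was at 394 and 639.7 CPM in sh-TRC, 429.6 and 317 with sh-MIR100HG-1, and 599 and 456 with sh-MIR100HG-2. Both sh-MIR100HG-1 samples were below both sh-MIR100HG-2 samples, and each hairpin group overlapped the controls. TIMP4 was scarce at a mean of 2.94 TPM, with 1.30 and 2.04 CPM in sh-TRC, 1.42 and 1.06 with sh-MIR100HG-1, and 0.705 and 1.10 with sh-MIR100HG-2. Its log2 fold change with both shRNAs was -0.66 ± 0.42 (edgeR adjusted p = 0.751), and sh-MIR100HG-1 replicate 1 lay within the range of the controls. Summed over the 4 TIMPs, the TPM was 1734 and 3933 in the controls, 1659 and 1440 with sh-MIR100HG-1, and 3794 and 2577 with sh-MIR100HG-2. The ratio of that sum to the summed TPM of the MMPs ran from 1.77 in sh-MIR100HG-1 replicate 2 to 4.25 in control replicate 2, so TIMP transcripts outnumbered MMP transcripts per length in every sample. TIMP2 to MMP14 alone had a ratio of 0.376 and 0.493 in the controls, 0.393 and 0.261 with sh-MIR100HG-1, and 0.343 and 0.320 with sh-MIR100HG-2.

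The TIMP genes share a feature of position: TIMP1, TIMP3 and TIMP4 lie inside SYN1, SYN3 and SYN2, genes for synapsins, on the opposite strand. Only TIMP4 shares exon bases with its host gene (10.3% of its exon length). TIMP1 lies at chrX:47441712-47446188 and TIMP3 at chr22:33197687-33259030 (GRCh37, plus strand). In the 3′UTR of TIMP3 the seed matches of the sh-MIR100HG-2 guide and of the sh-MIR100HG-1 guide stand close together. They are shown because TIMP3 was at an unadjusted p under 0.05 between the hairpins, with the 7 matching letters in capitals.
TIMP3, sh-MIR100HG-2 guide, chr22:33256054-33256076: caagcacccaggccAGAATAAca
TIMP3, sh-MIR100HG-1 guide, chr22:33256084-33256106: cttagttggtgaagACTTAAAca
TIMP3 thus holds letters that pair with either guide's seed, and TIMP1 holds neither. Any effect of these letters was not tested.

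**Figure D2:**
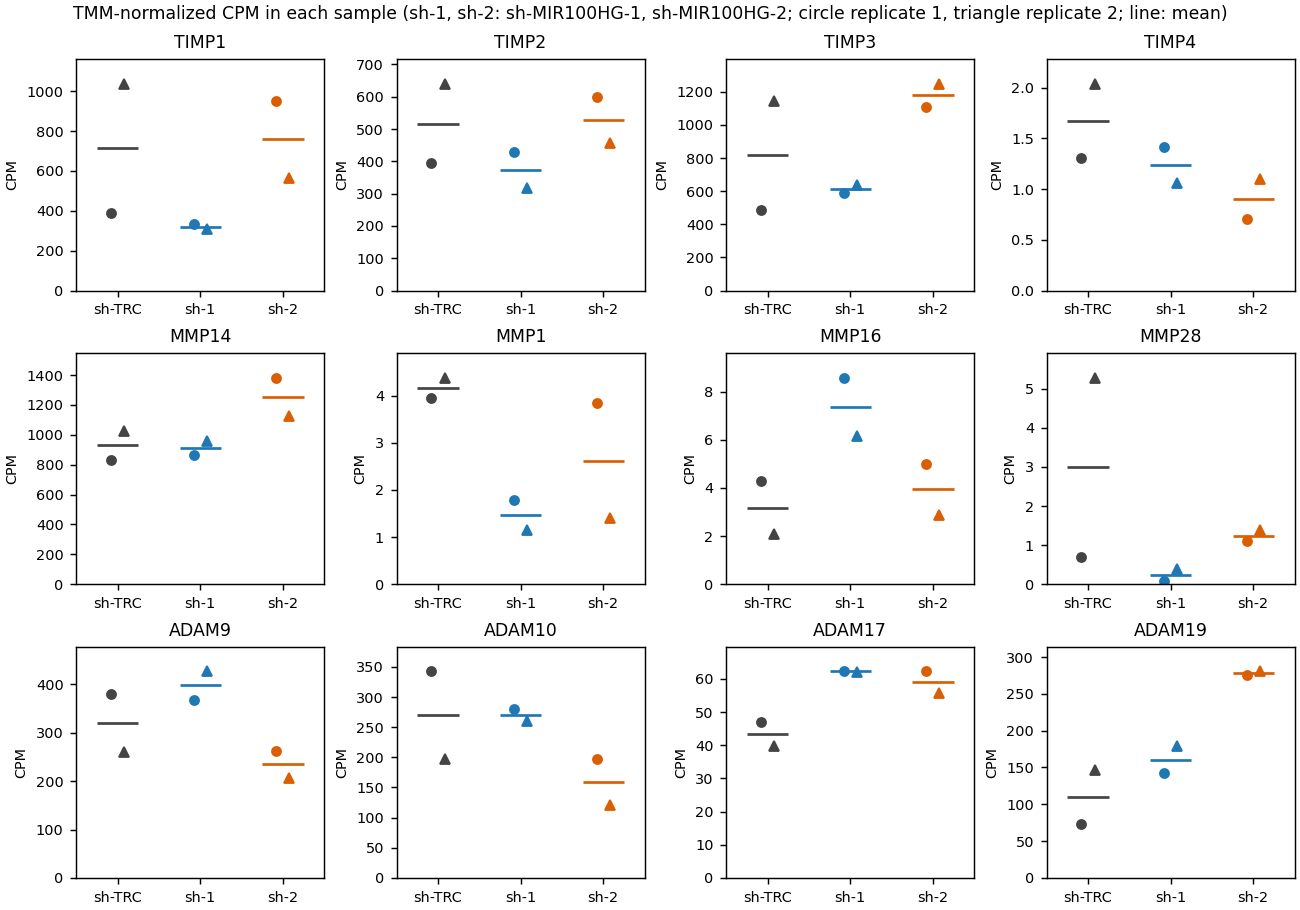
TMM-normalized CPM (linear axes from 0) of 12 genes in each of the 6 samples, by group; circles are replicate 1, triangles replicate 2, and lines are group means of 2 samples. The control points of TIMP1, TIMP3 and MMP28 are far apart, and in ADAM17 all 4 knockdown points stand above both controls.

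Among the 6 membrane-type MMPs, MMP14 is known for cutting fibrillar collagen at the cell surface and for activating the precursor of MMP2. MMP14 (chr14:23305766-23318236, GRCh37) was at 831 and 1027 CPM in sh-TRC, 867 and 961 with sh-MIR100HG-1, and 1383 and 1129 with sh-MIR100HG-2. Both sh-MIR100HG-2 samples were above all others, and the sh-MIR100HG-1 samples lay between the controls. With sh-MIR100HG-1 the log2 fold change was -0.02 ± 0.21, and with sh-MIR100HG-2 it was 0.43 ± 0.22 (unadjusted p = 0.0764, edgeR adjusted p = 0.596). MMP14 was the MMP with the deepest counts, 53760.5 per sample on average, so its spread is that between samples and not counting error.

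MMP16, a membrane-type enzyme related to MMP14, was at 4.28 and 2.07 CPM in sh-TRC, 8.58 and 6.14 with sh-MIR100HG-1, and 5.0 and 2.90 with sh-MIR100HG-2. Both sh-MIR100HG-1 samples were above every other sample, with a log2 fold change of 1.21 ± 0.46 (unadjusted p = 0.0290, edgeR adjusted p = 0.714). The remaining membrane-type genes, MMP15, MMP17, MMP24 and MMP25, had mean levels of 1.43 to 5.45 TPM and log2 fold changes between -0.55 and 0.23 with both shRNAs. MMP24 shares 18.1% of its exon length with the antisense gene MMP24OS, and the counting is not stated to use strand.

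MMP1, the interstitial collagenase, was at 3.95 and 4.38 CPM in sh-TRC, 1.78 and 1.16 with sh-MIR100HG-1, and 3.84 and 1.4 with sh-MIR100HG-2. MMP1 was below both controls in the 4 knockdown samples, but sh-MIR100HG-2 replicate 1 was close to them. The log2 fold change with both shRNAs was -1.09 ± 0.44 (unadjusted p = 0.0369, edgeR adjusted p = 0.639). The other collagenases were lower still, MMP13 at a mean of 0.570 TPM and MMP8 at 0.299 TPM. In both, the 4 knockdown samples together overlapped the controls, although both sh-MIR100HG-1 samples of MMP8 (0.301 and 0.378 CPM) were above both controls (0.298 and 0.204 CPM).

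MMP9, the gelatinase that was expressed, ran from 0.484 CPM in control replicate 1 to 6.5 CPM in sh-MIR100HG-2 replicate 1, and its controls differed 5.34-fold. MMP28, a secreted enzyme also called epilysin, was at 0.689 and 5.28 CPM in sh-TRC, 0.0904 and 0.378 with sh-MIR100HG-1, and 1.10 and 1.38 with sh-MIR100HG-2. A single library, control replicate 2, was far above the rest, and control replicate 1 lay between the hairpins. The log2 fold change with both shRNAs was the lowest of the 48 members at -2.50 ± 0.76 (unadjusted p = 0.0106, edgeR adjusted p = 0.531), and it was -0.38 without control replicate 2. MMP28 lies within TAF15 on the opposite strand and shares no exon bases with it.

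MMP19, which acts on basement membrane proteins, was at 21.7 and 14.9 CPM in sh-TRC, 9.46 and 12.9 with sh-MIR100HG-1, and 13.7 and 14.2 with sh-MIR100HG-2. The sh-MIR100HG-2 samples were just under control replicate 2. For MMP19 the log2 fold change was -0.71 ± 0.29 with sh-MIR100HG-1 (unadjusted p = 0.0412, edgeR adjusted p = 0.714) and -0.39 ± 0.29 with the other hairpin.

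Of the MMPs, 9 lie in a cluster of 435 kb on chromosome 11, the arm that also carries MIR100HG 19.1 Mb further on. In order of position these are MMP7, MMP20, MMP27, MMP8, MMP10, MMP1, MMP3, MMP12 and MMP13, of which MMP1, MMP7, MMP8 and MMP13 passed the filter. Neighbours were at unlike levels: MMP10 and MMP1 are 9.29 kb apart, with means of 0.0112 and 5.40 TPM. MMP12, the macrophage elastase, had 56 counts in control replicate 2 and 69 in sh-MIR100HG-1 replicate 1, and 0 counts in the other 4 samples. These are the samples in which ESR1, PDGFRA and TEK also stood apart, though LUM, COL1A2 and CDH5 did not. The part of any such difference in this result was not tested. With 0 counts the level of MMP12 in the other samples was at most 0.0559 CPM in control replicate 1, 0.0708 in sh-MIR100HG-1 replicate 2, 0.0661 in sh-MIR100HG-2 replicate 1 and 0.0599 in sh-MIR100HG-2 replicate 2, a limit of 3 counts that covers counting error only.

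**Figure D3:**
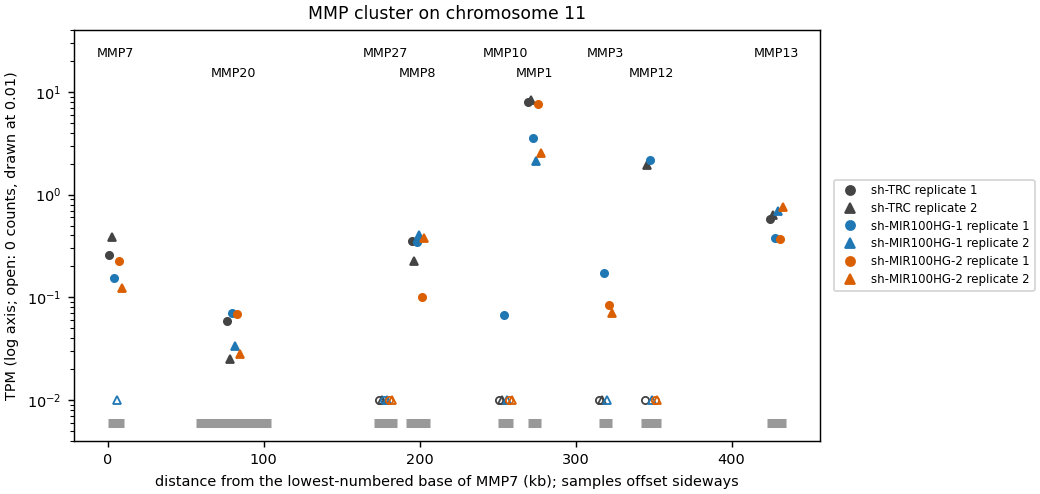
TPM (log axis) of the 9 MMP genes of the chromosome 11 cluster against distance in kb from the lowest-numbered base of MMP7, with 1 point per sample offset sideways, open points for 0 counts drawn at 0.01, and grey bars for the genes. MMP1 is the highest of the cluster in every sample, and MMP12 has counts only in control replicate 2 and sh-MIR100HG-1 replicate 1.

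The AP-1 element is a well known promoter element of MMP genes, and its letters were looked for in the 250 bases before each start in the RefSeq promoter table (GRCh38.p14). The letters TGACTCA or TGAGTCA, which are each other's reverse complement, were in 4.2% of 35116 promoters and in 1 of the 44 members found in the table, MMP7. For 27 members, MMP1, MMP12, MMP13 and TIMP2 among them, no promoter was looked at. The MMP7 match, in capitals, begins 67 bases before the start and is shown because it is the only one.
MMP7, chr11:102530796-102530825, minus strand: aaacactcaaaTGAGTCAcctatttccaca
MMP7 itself was near the limit of counting, with a mean of 6.33 counts and 0 to 0.238 CPM, so its place among the genes below both controls rests on few counts.

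ADAM17 and ADAM10 are the main sheddases of growth factors and receptors. ADAM17 (chr2:9628615-9695921, GRCh37) was at 47.0 and 39.9 CPM in sh-TRC, 62.3 and 62.2 with sh-MIR100HG-1, and 62.2 and 55.8 with sh-MIR100HG-2. All 4 knockdown samples were above both controls and close together. The log2 fold change with both shRNAs was 0.48 ± 0.19 (unadjusted p = 0.0310, edgeR adjusted p = 0.622), with 0.52 ± 0.21 and 0.44 ± 0.21 for the single hairpins. Leaving out any 1 sample kept it between 0.37 and 0.60. ADAM17 shares 24.1% of its exon length with IAH1 on the opposite strand. IAH1 ran from 27.7 to 39.2 CPM, with a log2 fold change of 0.09 ± 0.21, and its part in the ADAM17 counts was not tested.

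ADAM10 was at 343 and 198 CPM in sh-TRC, 281 and 259.8 with sh-MIR100HG-1, and 198 and 121 with sh-MIR100HG-2. Control replicate 2 and sh-MIR100HG-2 replicate 1 were level, and sh-MIR100HG-2 replicate 2 was lowest. With sh-MIR100HG-2 the log2 fold change was -0.76 ± 0.32 (unadjusted p = 0.0455, edgeR adjusted p = 0.555), against -0.00 ± 0.32 with sh-MIR100HG-1. The 3′UTR of ADAM10, 8741 bases long, has 2 matches to the seed of either guide. The first for each guide, counted from the stop codon, is shown, on the minus strand of GRCh37.
ADAM10, sh-MIR100HG-2 guide, chr15:58887138-58887160: ggaattgtaagcccAGAATAAtt
ADAM10, sh-MIR100HG-1 guide, chr15:58889583-58889605: gaccaggtggaattACTTAAAtt
The log2 difference of ADAM10 between the hairpins was -0.76 ± 0.32 (unadjusted p = 0.0455, edgeR adjusted p = 0.521). Any effect of the matches to either guide was not tested.

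ADAM19, which sheds neuregulins among other substrates, had the highest log2 fold change of the members. It was at 73.1 and 147 CPM in sh-TRC, 142 and 179 with sh-MIR100HG-1, and 276 and 281 with sh-MIR100HG-2. The sh-MIR100HG-2 samples were above all others, while control replicate 2 lay among the sh-MIR100HG-1 samples. Its log2 fold change was 0.94 ± 0.29 with both shRNAs (unadjusted p = 0.0111, edgeR adjusted p = 0.537), 0.55 ± 0.32 for the first hairpin alone and 1.34 ± 0.33 for the second (unadjusted p = 0.00315, edgeR adjusted p = 0.455). Between the shRNAs it was 0.79 ± 0.32 (unadjusted p = 0.0387, edgeR adjusted p = 0.509). Leaving out 1 sample moved the value for both shRNAs between 0.52, without control replicate 1, and 1.53, without control replicate 2.

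ADAM9, a widely expressed sheddase, was at 379 and 259.8 CPM in sh-TRC, 368 and 427 with sh-MIR100HG-1, and 262 and 207 with sh-MIR100HG-2. The hairpin groups did not overlap each other, and the controls spanned the gap between them. The log2 difference between the shRNAs was -0.76 ± 0.25 (unadjusted p = 0.0157, edgeR adjusted p = 0.509). ADAM32, whose gene begins 1.85 kb from ADAM9, was at 0.0905 TPM against 176 TPM for ADAM9. ADAM8 and ADAM15 had mean levels of 172 and 123 TPM, and in both genes the sh-MIR100HG-1 samples were below the sh-MIR100HG-2 samples. ADAM8 was at 170.2 and 289.8 CPM in sh-TRC, 169.7 and 132 with sh-MIR100HG-1, and 334 and 187 with sh-MIR100HG-2. ADAM15 was at 176 and 274 CPM in sh-TRC, 194 and 144 with sh-MIR100HG-1, and 264 and 220.1 with sh-MIR100HG-2. The sh-MIR100HG-1 samples of ADAM8 were also below both controls, replicate 1 by a narrow margin. Both genes had a higher control replicate 2 and their highest knockdown value in sh-MIR100HG-2 replicate 1, as TIMP1 did. ADAM11, ADAM22 and ADAM32, which lack the catalytic zinc-binding motif, had log2 fold changes of -0.49 to 0.12 with both shRNAs.

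The controls differed from each other over 1.5-fold in 14 of the 25 members with a mean of at least 200 counts. Control replicate 2 was the higher in 11 and control replicate 1 in 3. The matching share of all genes was not counted. Across the 15372 genes tested, those with few counts included, the log2 difference between the 2 controls had an SD of 0.487. Over the same genes, replicates of the first hairpin gave 0.482 and those of the second 0.526. Over all genes tested, the spread was thus not particular to the controls. For these members the replicates of each hairpin were not counted in the same way, so the SDs do not settle it for them. TIMP1, for example, was at 390.2 and 1037 CPM in the controls, 333 and 309 with sh-MIR100HG-1, and 951 and 566 with sh-MIR100HG-2. For TIMP1, TIMP2, TIMP3, ADAM8, ADAM9, ADAM10, ADAM15 and ADAMTS12 the sign of the log2 fold change with both shRNAs turned when 1 control was left out. TIMP1 went from -1.07 without control replicate 1 to 0.34 without control replicate 2, and TIMP3 from -0.43 to 0.81.

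**Figure D4:**
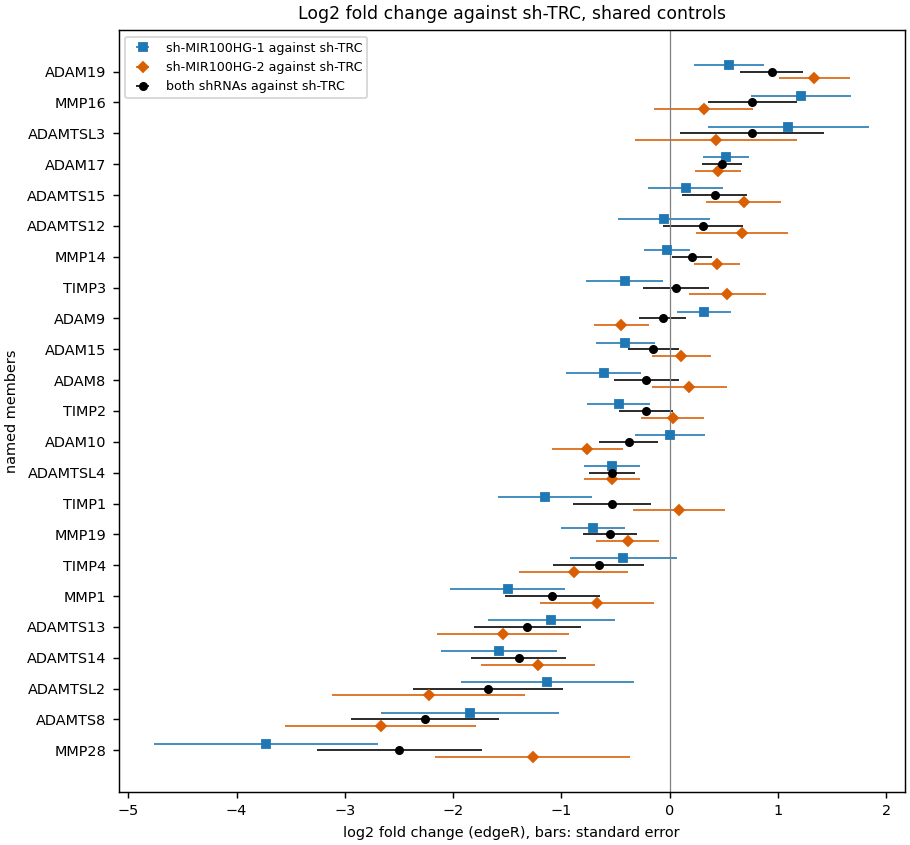
Log2 fold change (edgeR) with standard error bars of the 23 named genes for sh-MIR100HG-1 (blue), sh-MIR100HG-2 (orange) and both shRNAs (black) against the same 2 sh-TRC samples. ADAMTSL4, ADAMTS14 and ADAM17 have like values for both hairpins, whereas those of TIMP1, TIMP3, ADAM9 and ADAM10 lie apart by more than either standard error.

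Of the proteoglycan-cleaving ADAMTSs, ADAMTS15 was the most abundant, with 61.1 and 101 CPM in sh-TRC, 78.5 and 101 with sh-MIR100HG-1, and 94.2 and 166 with sh-MIR100HG-2. The groups overlapped, and the log2 fold change with both shRNAs was 0.41 ± 0.30 (edgeR adjusted p = 0.790). ADAMTS8, whose gene is its neighbour 20.0 kb away and lies 7.85 Mb beyond MIR100HG, was near the limit of counting. It was at 0.745 and 0.340 CPM in sh-TRC, 0.0753 and 0.236 with sh-MIR100HG-1, and 0.0441 and 0.120 with sh-MIR100HG-2. Its log2 fold change was -2.26 ± 0.68 (unadjusted p = 0.0101, edgeR adjusted p = 0.524) from a mean of 13.8 counts per sample. In the rest of this class, ADAMTS1, ADAMTS4, ADAMTS9 and ADAMTS20, the 4 knockdown samples together overlapped the controls.

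ADAMTS14, which trims procollagen to collagen, was at 1.94 and 2.06 CPM in sh-TRC, 0.919 and 0.401 with sh-MIR100HG-1, and 0.816 and 0.899 with sh-MIR100HG-2. The 4 knockdown values were below both controls, by a gap wider than the spread among them in CPM but not as a ratio. ADAMTS14 had a log2 fold change of -1.40 ± 0.44 (unadjusted p = 0.0120, edgeR adjusted p = 0.538), with -1.58 ± 0.53 and -1.22 ± 0.53 for the single hairpins. ADAMTS13, the von Willebrand factor protease, was at 0.577 and 0.663 CPM in sh-TRC, 0.316 and 0.260 with sh-MIR100HG-1, and 0.265 and 0.160 with sh-MIR100HG-2. Its log2 fold change was -1.32 ± 0.49 (unadjusted p = 0.0274, edgeR adjusted p = 0.615) from a mean of 20.3 counts per sample. ADAMTS12 was at 41.1 and 70.3 CPM in sh-TRC, 71.8 and 35.5 with sh-MIR100HG-1, and 114 and 62.6 with sh-MIR100HG-2, with overlap of all groups. ADAMTS16 was the steadiest of the ADAMTSs, with 13.9 to 15.6 CPM across the 6 samples and a log2 fold change of 0.03 ± 0.21.

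Of the ADAMTS-like genes, ADAMTSL4, whose product binds fibrillin microfibrils, was at 23.7 and 22.8 CPM in sh-TRC, 15.9 and 16.2 with sh-MIR100HG-1, and 13.4 and 18.6 with sh-MIR100HG-2. All 4 knockdown samples were below both controls. ADAMTSL4 had a log2 fold change of -0.53 with either hairpin and -0.53 ± 0.22 with both (unadjusted p = 0.0382, edgeR adjusted p = 0.642). ADAMTSL4 has 982 counts per sample on average and shares 28.2% of its exon length with AL356356.1 on the same strand, a gene with 0 counts in all samples. All 1811 exon bases of AL356356.1 are shared, and how reads on both genes were assigned is not given. The 0 counts therefore do not show whether AL356356.1 was transcribed or whether ADAMTSL4 lost reads there. ADAMTSL2 was at 0.335 and 0.170 CPM in sh-TRC, 0.0904 and 0.142 with sh-MIR100HG-1, and 0.0220 and 0.0799 with sh-MIR100HG-2. Its log2 fold change of -1.68 ± 0.69 (unadjusted p = 0.0400, edgeR adjusted p = 0.642) rests on 7.5 counts per sample. ADAMTSL1 and ADAMTSL5, at means of 13.2 and 19.7 TPM, had log2 fold changes of 0.24 ± 0.27 and -0.11 ± 0.21. ADAMTSL3 had 0.76 ± 0.66, with knockdown samples from 0.309 to 1.39 CPM around controls of 0.689 and 0.289 CPM.

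Matches to the seeds were counted in annotated 3′UTRs (GRCh37, GENCODE) of the 48 members and of the 13953 tested genes with a 3′UTR, with no test of the difference. The letters CTCAGGG, pairing with miR-125b-5p, were in 11 members (22.9%) against 16.1% of genes. CTACCTC, pairing with let-7a-5p, was in 5 members (10.4%) against 10.8%, and TACGGGT, pairing with miR-100-5p, in 0 members against 1.28%. The sh-MIR100HG-1 guide's ACTTAAA was in 6 members (12.5%) against 19.2%, and the sh-MIR100HG-2 guide's AGAATAA in 8 (16.7%) against 20.3%. Both members that were higher with both shRNAs hold a match to miR-125b-5p, as do ADAMTS14 and MMP28 among those that were lower, and these 4 are shown, each in the strand of its gene.
ADAM17, minus strand, chr2:9628669-9628691: gaattaacaagctgCTCAGGGta
ADAM19, minus strand, chr5:156906178-156906200: tgagtttctcttccCTCAGGGtg
ADAMTS14, plus strand, chr10:72520837-72520859: gcgggactgaccctCTCAGGGcc
MMP28, minus strand, chr17:34093477-34093499: aaactggtggtgctCTCAGGGca
The other members with CTCAGGG were ADAM11, ADAM28, ADAMTS4, MMP11, MMP14, MMP15 and MMP25, none at an unadjusted p under 0.05 with both shRNAs. Of the lower genes, ADAMTS8 and ADAMTS14 also hold a match to let-7a-5p, and ADAMTS8 holds one to the sh-MIR100HG-1 guide. The matches are of 7 letters only and say nothing of binding.

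Partner genes of these proteases were taken from lists by role. In the list on activation and inhibition of MMPs, 1 of 8 genes tested was higher at an unadjusted p under 0.05 with both shRNAs (3.23% of all genes) and 1 was lower (4.44%). FURIN, which clips the precursors of MMP14 and of ADAMs, was at 110.5 and 139 CPM in sh-TRC, 149 and 130.4 with sh-MIR100HG-1, and 200.5 and 212 with sh-MIR100HG-2. Its log2 fold change was 0.45 ± 0.19 (edgeR adjusted p = 0.642), and sh-MIR100HG-1 replicate 2 lay between the controls. LRP1, the endocytic receptor that clears several MMPs and TIMPs, was at 161 and 211 CPM in sh-TRC, 116 and 64.3 with sh-MIR100HG-1, and 133 and 74.7 with sh-MIR100HG-2. All 4 knockdown samples were below both controls, with a log2 fold change of -0.94 ± 0.30 (edgeR adjusted p = 0.554).

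In the list on maturation of ADAM10 and ADAM17, 2 of 9 genes tested were lower (4.44% of all genes) and 0 higher (3.23%). RHBDF2 (iRhom2), which escorts ADAM17 to the cell surface, was at 48.2 and 57.7 CPM in sh-TRC, 34.8 and 27.5 with sh-MIR100HG-1, and 47.2 and 36.1 with sh-MIR100HG-2. The 4 knockdown values were below both controls, the opposite order to ADAM17 itself, with a log2 fold change of -0.56 ± 0.21 (edgeR adjusted p = 0.615). TSPAN10, a tetraspanin of the group that escorts ADAM10, had -1.16 ± 0.38 (edgeR adjusted p = 0.554) from a mean of 63.7 counts.

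Among 16 substrates shed by ADAMs, 2 were higher (3.23% of all genes) and 3 lower (4.44%). IL6R, the interleukin-6 receptor, was at 4.37 and 2.53 CPM in sh-TRC, 10.9 and 10.8 with sh-MIR100HG-1, and 16.7 and 16.4 with sh-MIR100HG-2. The 3 groups did not overlap, and the log2 fold change was 1.96 ± 0.30 with both shRNAs (unadjusted p = 0.000159, edgeR adjusted p = 0.381), with values of 1.66 ± 0.33 and 2.26 ± 0.33 for the single hairpins. HBEGF, a ligand of the EGF receptor, had 0.79 ± 0.27 (edgeR adjusted p = 0.575). The adhesion molecule L1CAM had -0.82 ± 0.23 (edgeR adjusted p = 0.476), with 133 and 203 CPM in sh-TRC and 79.5 to 129 CPM in the knockdown samples. The EGF receptor ligands BTC and EGF had -1.39 ± 0.47 and -0.97 ± 0.41 (edgeR adjusted p = 0.562 and 0.642). Of 6 ADAMTS substrates tested, 1 was lower (4.44% of all genes), the proteoglycan BCAN at -1.61 ± 0.51 (edgeR adjusted p = 0.545), from 27.5 counts per sample. Of the 10 genes of plasminogen activation, 0 were higher (3.23% of all genes) or lower (4.44%), and their median log2 fold change was 0.18.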

How the data were processed

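RNA-seq of 6 MDA-MB-231 samples was analysed in 3 groups of 2. The values are raw counts per gene with exon lengths. The authors made the counts before they were deposited: reads were trimmed, mapped to GRCh37 with STAR (version 2.5.2a by the submitters' processing notes, while the methods give another) and assigned to GENCODE exons with FeatureCounts. Strand setting and handling of reads with several positions are not given in the sources used here, so counts of overlapping genes and paralogs are uncertain.

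Genes with fewer than 5 counts in at least 3 of 6 samples were removed (12373 of 27745), and 15372 were tested. TMM factors, glmQLFit and glmQLFTest of edgeR 4.0.16 (R 4.3.3) were applied to all 3 groups in 1 model with 3 residual degrees of freedom and Benjamini-Hochberg adjustment over all genes tested. SE is the log2 fold change divided by the square root of F. On simulated counts of the comparison of both shRNAs, adjusted calls were made for 19.7%, 80.3% and 90.9% of the 66 genes each changed by 1, 2 and 3 on the log2 scale. Of 135 calls, 9 were false. The simulated samples varied only by the spread that edgeR fitted to each gene. In the real samples 0 genes were called, and MIR100HG at a log2 fold change of -1.86 had an edgeR adjusted p of 0.381. The simulated shares therefore do not measure the power of the test on the real samples. Members and lists were chosen with earlier results of these data known. Named are the 4 TIMPs, MMP1, MMP14, ADAM10, ADAM17, the 12 highest by mean TPM, members at an unadjusted p under 0.05 in any of the 4 comparisons, the 3 highest and 3 lowest log2 fold changes, and partner genes at an unadjusted p under 0.05 with both shRNAs. Other members named were chosen after their values were seen. Alternatives were the likelihood ratio test, DESeq2 1.42.0, RLE factors, library size alone (only for counts of members above or below both controls), no filter, filterByExpr (only for the number kept), a replicate block, and each sample left out. Symbols came from GENCODE for 26966 genes. Seeds were matched in the 3′UTR of each gene's Ensembl canonical transcript, and microRNAs and promoters are from RefSeq (GRCh38.p14). Replicates of a group differed beyond counting error, so each was kept as a sample.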

Additional observations from a re-analysis of the deposited data

Results flagged for a closer look

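ADAMTS20, a secreted protease that cuts the proteoglycan versican, was above both controls in both sh-MIR100HG-1 samples (0.572 and 0.520 CPM against 0.428 and 0.272) and below both in both sh-MIR100HG-2 samples (0.242 and 0.220 CPM). The log2 difference between the shRNAs was -1.23 ± 0.60 (unadjusted p = 0.0724, edgeR adjusted p = 0.548), from a mean of 20.2 counts per sample. How often this order of the groups arises over all genes, or by chance, was not counted. The order alone therefore does not show opposite responses to the hairpins.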

How the results depend on the processing

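With both shRNAs, 0 members were called under the likelihood ratio test, DESeq2, RLE factors, the replicate block or any sample left out, and 3 (ADAM19, MMP12 and MMP28) with no filter. With sh-MIR100HG-1, DESeq2 called 1 (MMP28) and no filter 2 (MMP28 and TIMP1). With sh-MIR100HG-2, the likelihood ratio test and DESeq2 each called 1 (ADAM19), and no filter 2 (ADAM19 and MMP12). Between the shRNAs, no filter called 4 (MMP12, MMP28, TIMP1 and TIMP3). The cause was not tested. Over all genes, both shRNAs gave 109 calls by the likelihood ratio test, 130 by DESeq2, 392 with no filter and 0 in the main test, where 1180 were at an unadjusted p under 0.05. With no filter, 227 of 21349 genes were called with sh-MIR100HG-1, 517 with sh-MIR100HG-2 and 679 between the shRNAs. Without the filter the adjusted p of ADAM19 was 0.0101 and that of MMP28 5.61e-05.

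The replicate numbers were not shown to pair the controls with the hairpin samples. Deviations of same-numbered samples correlated at -0.21 for sh-TRC with sh-MIR100HG-1 and at 0.05 for sh-TRC with sh-MIR100HG-2. For sh-MIR100HG-1 with sh-MIR100HG-2 the correlation was 0.57, and whether these samples were paired was not tested. The replicate block gave 0 calls in every comparison. At an unadjusted p under 0.05, the count for both shRNAs was 9 in the main fit, 10 with the block and 5 to 8 with 1 sample left out, the lowest without sh-MIR100HG-1 replicate 2. Between the shRNAs it was 6 in the main fit, 9 with the block, 11 with the control numbers crossed (added after seeing the data) and 17 with no filter. Over all genes the same settings gave 1453, 2016 and 1865 of 15372, and 2357 of 21349 with no filter, so the count rose over all genes too. Members above both controls numbered 2 to 7 and members below 8 to 16 with 1 sample left out, for which fewer samples make the condition easier. Both highest counts came without a control, and the matching numbers over all genes were not counted.

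With 1 sample left out, the log2 fold change with both shRNAs crossed 0 for ADAM8 (-0.55 to 0.22), ADAM9 (-0.31 to 0.23), ADAM10 (-0.721 to 0.0683), ADAM15 (-0.44 to 0.20), ADAMTS12 (-0.0288 to 0.748), TIMP1 (-1.07 to 0.34), TIMP2 (-0.53 to 0.17) and TIMP3 (-0.43 to 0.81). The extremes of each were the fits without 1 or the other control. Under the likelihood ratio test, DESeq2, RLE factors, no filter and the replicate block, with or without crossed control numbers, the 23 named members kept the sign of the main fit. The filterByExpr rule kept 47 members. Genes under 20 counts per sample, such as ADAMTS8 and ADAMTSL2, are limited by counting.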
